A study of Eurytemora affinis with 4 samples.

Results

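The male-limited loci described here are 235 transcribed loci of the copepod *Eurytemora affinis* whose listed RNA level was far higher in adult males than in adult females. They were chosen from the authors' deposited Cuffdiff table of 61672 loci, of which 61573 lie on a scaffold. A locus was taken if the authors tested it, if no other listed locus had the same coordinates, and if it spanned 1000 to 20000 bases. It also had to reach at least 5 FPKM in males and at least 32 times the female FPKM, with 0 in females counted as passing. FPKM is the number of sequenced fragments scaled by transcript length and by the size of the library. Of the 3306 loci that met every condition but the fold, 235 met the fold as well, a share of 7.11%. The other 3071 are called the comparison loci below.

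Males came from 2 libraries of pooled adult animals and females from 2 libraries of the same kind. All animals were reared in culture at 13 °C, a salinity of 15 PSU and a daily cycle of 15 h of light and 9 h of dark. The sexes were kept apart for 2 days before RNA was taken. For the last 24 h the animals had no food and received 6.0 µm beads at 120 µL per L to empty the gut. RNA came from homogenised whole animals, was selected for poly(A) tails, and was sequenced from libraries that kept its strand. Nothing in the labels says that the pools of a sex came from separate cultures, so the spread behind the authors' p-values may be technical. The tables used here hold 1 pooled value per sex, so no spread between libraries and no depth per library can be given. Because the loci were chosen by the male and female FPKM, every value of that contrast below describes them and carries no test. In whole animals, fewer cells of a type and less RNA per cell cannot be told apart.

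In calanoid copepods the male holds the female with a modified first antenna and passes sperm in a spermatophore that is fixed to the female's body. In many animals the testis transcribes a large set of genes that are silent elsewhere, and in arthropods male accessory glands add secreted proteins to the ejaculate. Which tissue the loci described here were transcribed in was not tested, since whole animals were sequenced. No gene name or product stands beside any locus in the files, so each locus is given by its identifier and position.

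The male-limited loci covered a wide range of male levels. The authors' pooled male FPKM ran from 5.01 to 30334, with a median of 27.8 and quartiles of 10.5 and 78.5. Their pooled female FPKM ran from 0 to 4.83, with a median of 0.0354 and an upper quartile of 0.133. For the comparison loci the median was 11.4 FPKM in males and 13.5 FPKM in females. High male levels were more frequent among the male-limited loci: 49 of 235 (20.9%) reached 100 FPKM in males, against 140 of 3071 comparison loci (4.56%). Of the loci at 1000 FPKM or more in males, 5 were male-limited and 3 were comparison loci. The 5 include GENE_0056381, whose value stands with a transcript listed at another position, described below.

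**Figure D1:**
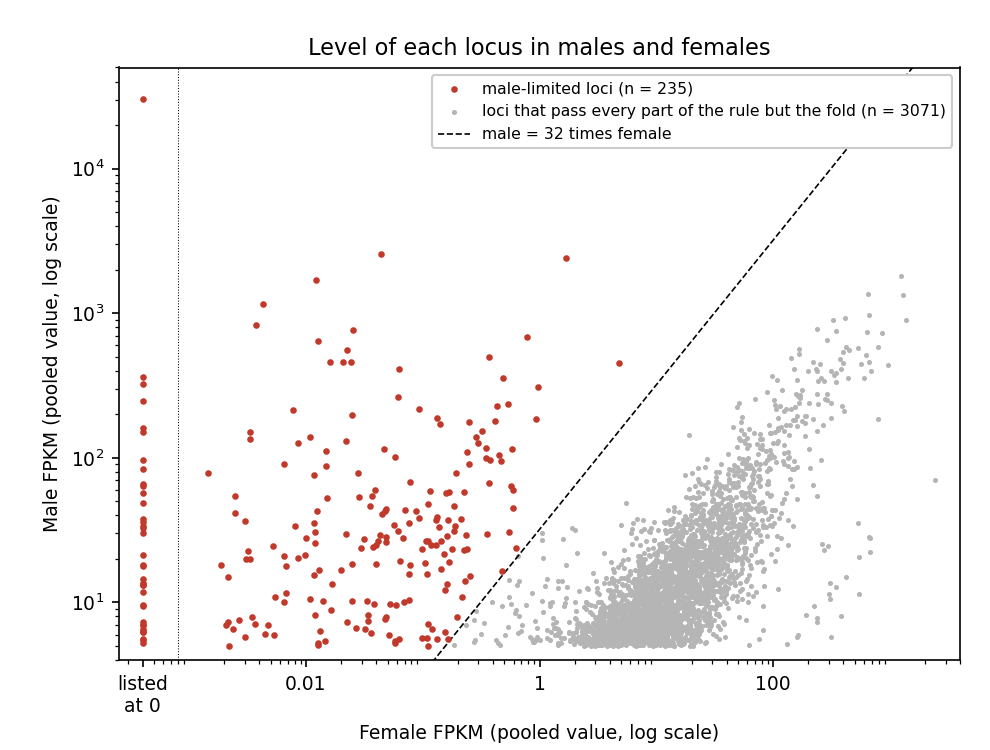
The authors' pooled FPKM in males (vertical, log scale) and in females (horizontal, log scale) for the 235 male-limited loci (red) and the 3071 comparison loci (grey); loci listed at 0 in females stand at the left edge. Male-limited loci lie above the dashed line of 32 times by construction, and 37 of them are listed at 0 in females.

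How little RNA females had differed among the male-limited loci. Females were listed at 0 FPKM for 37 of the 235 loci (15.7%), and at more than 0.5 FPKM for 12. A female level above 1 FPKM occurred at 2 loci, GENE_0105832 with 450 FPKM in males and 4.83 FPKM in females, and GENE_0128205 with 2426 FPKM in males and 1.69 FPKM in females. For the 198 loci with a female level above 0, the log2 ratio of male to female FPKM ran from 5.08 to 18.03 with a median of 8.99. The median male level was 149.6 FPKM for the 12 loci above 0.5 FPKM in females and 18.2 FPKM for the 37 loci at 0, an order that the fold in the rule partly fixes.

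The loci nearest to each threshold were as follows. Just inside the fold threshold, GENE_0154462 had 5.57 FPKM in males and 0.165 FPKM in females, a ratio of 33.8. Just outside it, GENE_0004552 had 20.9 FPKM in males and 0.660 FPKM in females, a ratio of 31.6. At the level threshold, GENE_0137333 was taken with 5.01 FPKM in males and GENE_0064609 was left out with 4.87 FPKM. At the short end of the span GENE_0152628 was taken with 1005 bases and GENE_0162808 was left out with 997 bases. At the long end GENE_0172862 was taken with 18581 bases and GENE_0021480 was left out with 24656 bases.

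The 12 loci with the highest male FPKM had at least 463 FPKM in males and at most 1.69 FPKM in females. GENE_0140495 (Scaffold318, bases 333656 to 335420) had 2557 FPKM in males and 0.0442 FPKM in females. GENE_0128205 (Scaffold221, bases 348982 to 350304) had the highest female level of the 12, given above. GENE_0055413 (Scaffold606, bases 149475 to 152882) had 1691 FPKM in males and 0.0122 FPKM in females. These 3 loci lay on 3 scaffolds, and each spanned less than 4617 bases, the upper quartile of the male-limited loci.

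GENE_0164152 (Scaffold617, bases 118992 to 122449) had the largest finite contrast of all 235 loci. It had 1149 FPKM in males and 0.00430 FPKM in females, a log2 ratio of 18.03. GENE_0112752 (Scaffold130, bases 850961 to 854932) came next in contrast, with 824 FPKM in males and 0.00372 FPKM in females. Log2 ratios of this size rest on female values close to 0.

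Apart from GENE_0056381, described below, the remaining loci among the 12 lay between 463 and 767 FPKM in males. GENE_0103651 (Scaffold525, bases 20107 to 22020) had 767 FPKM in males and 0.0254 FPKM in females. GENE_0103772 (Scaffold152, bases 493038 to 499748) had 690 FPKM in males and 0.785 FPKM in females. GENE_0115596 (Scaffold147, bases 992146 to 994530) had 640 FPKM in males and 0.0128 FPKM in females. The female level of GENE_0103772 was the highest of these 3. GENE_0105013 (Scaffold1, bases 1974263 to 1977204) had 561 FPKM in males and 0.0227 FPKM in females. GENE_0007427 (Scaffold655, bases 74030 to 87708) had 502 FPKM in males and 0.371 FPKM in females, and it was the longest of the 12 at 13679 bases. GENE_0116331 (Scaffold150, bases 673555 to 675436) had 463 FPKM in males and 0.0208 FPKM in females.

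**Figure D2:**
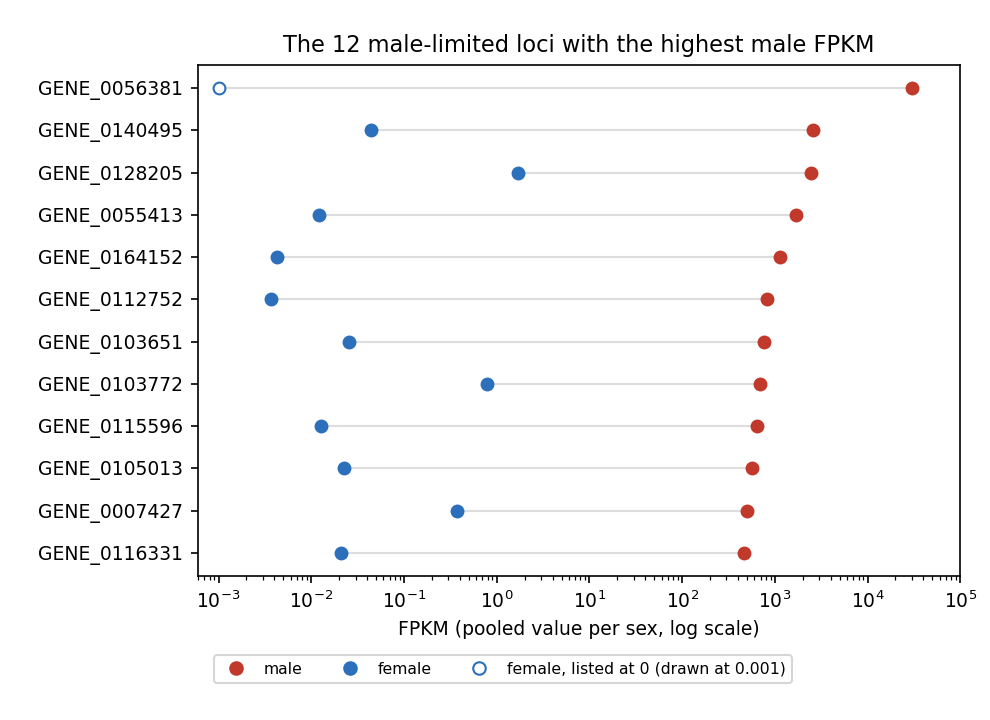
The authors' pooled FPKM (log scale) in males (red) and in females (blue) for the 12 male-limited loci with the highest male FPKM; the open point is listed at 0 in females and drawn at 0.001. Female levels run from 0 to 1.69 FPKM, and the male levels apart from that of GENE_0056381 from 463 to 2557 FPKM.

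The highest male value of all belonged to a transcript listed elsewhere in the genome. GENE_0056381 (Scaffold239, bases 249029 to 251917) was listed at 30334 FPKM in males and at 0 FPKM in females. In the isoform table nearly all of that value stood with a 101-base transcript listed on Scaffold123, bases 114491 to 114591. Its identifier, comp127602_c1_sefemale, contains the word female, whereas the identifiers of the remaining 281 isoforms of the male-limited loci start with CUFF. What that label stands for is not given. The other isoform of GENE_0056381, at the position of the locus itself, had 0.335 FPKM in males and 0.193 FPKM in females. Neither tool of the authors called it: in the authors' deposited table edgeR gave 0.11 as its log2 fold change (adjusted p = 1), and Cuffdiff gave an adjusted p of 0.312. Its average level by edgeR was the lowest of the 233 male-limited loci listed there, so little can be read from that fold change. Of the 282 isoforms of the male-limited loci, the 101-base transcript was the 1 listed at another position than its locus. The locus alone made up 54.7% of the summed male FPKM of the 235 loci, which was 55438 with it and 25105 without it, whereas the median was 27.6 FPKM without it.

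Listed at 0 in females, the next highest loci were GENE_0056142 (Scaffold289, bases 489142 to 492548) with 360 FPKM in males and GENE_0034706 (Scaffold6826, bases 1 to 1602) with 322 FPKM in males. Both were called male-biased by Cuffdiff and by edgeR (adjusted p = 5.27e-69 and 9.93e-29 by edgeR in the authors' deposited table). GENE_0034706 starts at the first base of its scaffold.

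The authors' own sex calls differed between their 2 tools for these loci. Cuffdiff called 150 of 235 male-biased at an adjusted p under 0.05 (63.8%, 95% Clopper-Pearson interval 57.3 to 69.98), against 7.06% of all 41996 loci it tested. edgeR, which works on counts of fragments, called 229 of the 233 loci it listed (98.3%), against 8.40% of all 37449 loci. The rule used the same contrast, so these shares describe the loci and no more. Both tools called 146 loci, edgeR alone 83, Cuffdiff alone 4, and neither called 2. All 146 also stood in the authors' set of loci shared by 3 methods (62.1%), which holds 2.10% of the loci that both tools tested as male-biased.

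Loci that edgeR called and Cuffdiff did not mostly had a very small female FPKM above 0. Cuffdiff called 36 of the 37 loci at 0 FPKM in females, none (0) of the 37 loci above 0 and up to 0.01 FPKM, and 18 of the 62 loci between 0.01 and 0.05 FPKM. Of the loci with more female RNA it called 23 of 25 between 0.05 and 0.1 FPKM, 61 of 62 between 0.1 and 0.5 FPKM, and all 12 above 0.5 FPKM. edgeR called 35, 36, 61, 25, 60 and 12 loci in the same 6 classes. GENE_0164152, the locus with the largest finite contrast, had an adjusted p of 0.454 by Cuffdiff and of 5.85e-119 by edgeR in the authors' deposited table.

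The edgeR values place most of these loci at the lowest female level that the comparison gives. CPM is a count of fragments scaled to a common library total. From the average level and the fold change that the authors deposited, 1 level per sex follows, called the implied CPM below. The implied female level lay between -3.36 and -1.76 log2 CPM for 180 of 233 loci, where -3.36 was the lowest in the whole table. The other loci fell into separate bands, with 16 between -1.09 and -0.96 and 23 between -0.24 and -0.10 log2 CPM. The remaining 14 lay from 0.28 to 3.29 log2 CPM. They include GENE_0056381, whose average level of 0.964 log2 CPM was the lowest of the 233. Of the 180 loci in the lowest band, Cuffdiff gave 144 (80.0%) a female FPKM above 0, with a median of 0.0307 and a highest value of 0.348. Most small female FPKM values therefore stand beside an edgeR level at or near the floor of that table. The log2 fold change of the 233 loci in the authors' deposited table ran from 0.11 to 15.26 with a median of 9.05, and its size at the floor depends on the prior count of the fit.

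Of the 6 loci that edgeR did not call, 2 were not in its table and 4 were in it. GENE_0104758 (Scaffold1) and GENE_0134508 (Scaffold27) had no edgeR row, with 18.5 and 20.8 FPKM in males and 0.0246 and 0.00644 FPKM in females. The other 4 were GENE_0056381, GENE_0112748, GENE_0129495 and GENE_0154462, named here after their values were seen. GENE_0112748 (Scaffold130, bases 840544 to 842365) had 37.5 FPKM in males and was listed at 0 in females, but its implied level was 4.003 CPM in males and its log2 fold change 3.77 (adjusted p = 0.565 in the authors' deposited table). GENE_0129495 had 37.4 FPKM in males and 0.163 FPKM in females, with an implied 4.45 CPM in males (adjusted p = 0.357 in the authors' deposited table). For GENE_0056381, GENE_0112748 and GENE_0129495 the implied male CPM was less than 0.1 of what their FPKM gives at the median ratio.

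The 2 measures ranked the loci differently. Over the 233 loci, male FPKM and implied male CPM had a Spearman correlation of 0.585, a description across loci that share the same libraries, and 0.472 over 3033 comparison loci. The median ratio of implied CPM to FPKM was 2.66 for the male-limited loci and 2.05 for the comparison loci. CPM is not divided by transcript length, so long transcripts have a higher ratio. The ratio was more than 10 times the median at 16 of 233 male-limited loci (6.87%), and more than 10 times their own median at 67 of 3033 comparison loci (2.21%). Of the 12 highest loci by FPKM, 8 were also among the 12 highest by implied CPM. GENE_0164152 led by implied CPM, with 3842 in males.

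Some loci stood far above the median ratio, and picking them by that ratio favours a low FPKM. Chosen after their values were seen, GENE_0004570 (Scaffold580, bases 146543 to 149736) had 5.23 FPKM but an implied 973 CPM in males, and GENE_0066130 (Scaffold159, bases 834888 to 837128) had 6.53 FPKM but an implied 1053 CPM. GENE_0116784 (Scaffold154, bases 238161 to 245864) had 33.6 FPKM and an implied 2836 CPM in males, which put it among the highest loci by that measure. Which of the 2 values is nearer to the amount of RNA was not tested. Summed over all loci of the edgeR table, 6.35% of the implied CPM in males and 0.00809% in females came from the male-limited loci, and the 10 highest held 35.0% of the male-limited share.

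**Figure D3:**
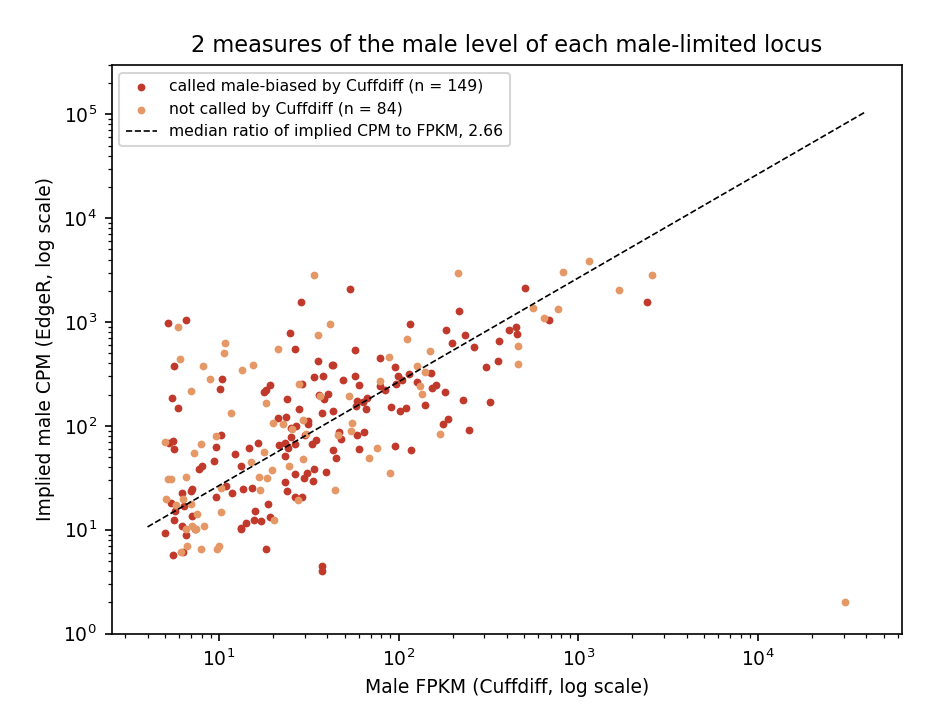
Male level of the 233 male-limited loci with an edgeR value, as the authors' pooled FPKM (horizontal, log scale) and as implied CPM (vertical, log scale), coloured by the Cuffdiff call; the dashed line is the median ratio of 2.66. GENE_0056381 stands alone at the lower right with 30334 FPKM and 2.03 CPM, and loci with 5 to 34 FPKM reach 2836 CPM at the upper left.

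Long spans were less frequent among the male-limited loci than among the comparison loci. Their median span was 3012 bases with quartiles of 1928 and 4617, against a median of 3543 and quartiles of 1856.5 and 7151 for the comparison loci. Spans over 2000 and up to 5000 bases held 116 of 235 male-limited loci (49.4%) and 34.5% of the comparison loci. Above 10000 bases stood 14 male-limited loci (5.96%) and 14.7% of the comparison loci. The share at 1000 to 2000 bases was 28.1% in both sets. A span covers introns as well as exons, and the tables do not divide the 2.

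Level and span showed little relation to each other. The median male FPKM was 26.5, 30.7, 24.9 and 24.1 in the 4 classes of span from shortest to longest. The Spearman correlation of span with male FPKM was -0.0337 over the 235 loci and -0.108 over the comparison loci, again as descriptions across loci. The longest, GENE_0172862 (Scaffold84, bases 589616 to 608196), had 19.3 FPKM in males and 0.0645 FPKM in females. The shortest, GENE_0152628 (Scaffold4483, bases 602 to 1606), had 13.3 FPKM in males and 0.161 FPKM in females.

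Most male-limited loci had a single listed isoform. There were 204 loci with 1 isoform, 20 with 2, 6 with 3 and 5 with 4, and none (0) with 5 or more. At least 2 isoforms were listed for 31 of 235 male-limited loci (13.2%, 95% Clopper-Pearson interval 9.14 to 18.2) and for 755 of 3071 comparison loci (24.6%, interval 23.1 to 26.1). Of the comparison loci, 107 (3.48%) had 5 or more. In each class of span the share with 2 or more isoforms was lower among male-limited loci. For spans up to 2000 bases it was 4.55% of male-limited loci (3 of 66) against 6.02% of comparison loci. It was 10.3% (12 of 116) against 18.6% up to 5000 bases, and 30.8% (12 of 39) against 37.6% up to 10000. Above that it was 28.6% (4 of 14) against 54.1%. With so few loci in some classes, the smaller differences carry little weight. The intervals cover counting error only and treat loci as independent, which neighbouring loci may not be.

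In the 31 loci with several isoforms, 1 isoform usually carried the male RNA. Its share of the male FPKM of the locus ran from 39.9% to 100% with a median of 97.4%, and it was at least 90% at 18 of 31 loci (58.1%). In the comparison loci the median was 89.9%, with at least 90% at 376 of 755 loci (49.8%). Of the 61 tested isoforms of these 31 loci, Cuffdiff called 22 male-biased (36.1%), against 6.07% of all 45704 isoforms it tested. No isoform (0) of the 265 tested in the male-limited loci had more FPKM in females than in males. Of the 17 untested isoforms 6 did, at no more than 0.00920 FPKM in females. For the 204 loci with 1 isoform the rule itself had fixed the direction. The other isoforms are parts of loci chosen by the same contrast, so these counts and calls describe them and no more. A ratio under 32 was found at 6 of the 61 isoforms. The leading isoform was the same in males and in females at 16 of the 24 loci with any female level. Some of these female values were close to 0, as at GENE_0014622 with 0.00330 and 0.00920 FPKM. At such levels the leading isoform in females cannot be told with confidence.

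The loci with the most isoforms were low to middle in level. GENE_0103744 (Scaffold356, bases 397719 to 403971) had 4 isoforms, and 2 of them carried its RNA, with 22.9 and 4.90 FPKM in males and 0.0680 and 0.000189 FPKM in females. GENE_0103941 (Scaffold230, bases 78618 to 81265) had 4 isoforms with 7.19, 4.85, 1.22 and 0.327 FPKM in males, all listed at 0 in females. GENE_0034267 (Scaffold181, bases 468241 to 474432) divided its male RNA most evenly of the 31, with 2.27, 1.93 and 1.49 FPKM in 3 isoforms. By contrast GENE_0007565 (Scaffold346, bases 68799 to 74534) had 98.7% of its male RNA in 1 of its 4 isoforms. Of the 12 highest loci, GENE_0007427 had 2 substantial isoforms, with 324 and 177 FPKM in males and 0.178 and 0.188 FPKM in females, so that the 2 female levels lay close together. GENE_0103772 had 2 as well, with 564 and 126 FPKM in males and 0.600 and 0.185 FPKM in females.

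The male-limited loci were spread over 167 of 2677 scaffolds. A single locus lay on each of 119 scaffolds, and the remaining 116 loci lay on 48 scaffolds with 2 to 7 each. Scaffold230 held the most with 7, and Scaffold1 followed with 6. None (0) of the 235 loci overlapped another listed locus, and none (0) of the 3071 comparison loci did. The rule had already left out loci that share coordinates with another, so these counts say little about position.

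Male-limited loci often had another close by. Within 50000 bases of another male-limited locus lay 64 of 235 (27.2%, 95% Clopper-Pearson interval 21.6 to 33.4), whereas 100 of 3071 comparison loci (3.26%) lay that close to a male-limited locus. Within 10000 bases the shares were 19.6% of male-limited loci and 0.716% of comparison loci. When loci no more than 50000 bases apart were joined, 171 stood alone, 22 runs held 2 loci, 4 runs held 3 and 2 runs held 4. Whether neighbours are separate genes or pieces of 1 gene cannot be read from the tables.

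On Scaffold617, 4 male-limited loci lay within bases 101182 to 136914. GENE_0164150 (bases 101182 to 107852) had 7.29 FPKM in males and 0.00217 FPKM in females, and GENE_0164151 (bases 109854 to 115160) had 88.5 FPKM in males and 0.0147 FPKM in females. GENE_0164152, described above, had 1149 FPKM in males, and GENE_0164156 (bases 132514 to 136914) had 150.1 FPKM in males and 0.00334 FPKM in females. Their male levels spanned more than 2 orders of magnitude within 35733 bases, while every female level was at most 0.0147 FPKM. edgeR called all 4 male-biased, with log2 fold changes of 9.08 to 15.26 in the authors' deposited table, and Cuffdiff called none of them.

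Scaffold230 had 7 male-limited loci spread over a longer stretch. GENE_0014622 (bases 66457 to 77310) had 42.8 FPKM in males and 0.0125 FPKM in females, and next to it lay GENE_0103941 with its 4 isoforms. A run of 3 followed within bases 134014 to 144468. In it GENE_0129476 had 30.3 FPKM and GENE_0010002 had 32.7 FPKM in males, both listed at 0 in females, and GENE_0129479 had 17.8 FPKM in males and 0.00671 FPKM in females. These 3 had like male levels. Farther along stood GENE_0040106 (bases 241200 to 242805) with 246 FPKM in males and 0 in females, and GENE_0129495 (bases 358279 to 359506), which edgeR did not call.

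The 6 loci of Scaffold1 were far apart for the most part. GENE_0104842 (bases 1040434 to 1043201) had 42.9 FPKM in males and 0.0478 FPKM in females, and its neighbour GENE_0104847 (bases 1047899 to 1052401) had 21.4 FPKM in males and 0.00978 FPKM in females. GENE_0104359 (bases 4638219 to 4646866) had 24.9 FPKM in males and 0.0396 FPKM in females. GENE_0105832 (bases 7234669 to 7238320), with the highest female level of all 235 loci, lay about 2587800 bases from the nearest other male-limited locus. Its log2 fold change of 6.52 (edgeR adjusted p = 5.08e-65 in the authors' deposited table) was below the median of the male-limited loci.

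The other runs of at least 3 loci, named after their values were seen, lay on Scaffold156, Scaffold150, Scaffold300 and Scaffold239. On Scaffold156, bases 657771 to 692777, the 4 loci GENE_0117107, GENE_0117109, GENE_0117114 and GENE_0117117 had 26.7, 36.3, 83.5 and 15.0 FPKM in males and at most 0.0413 FPKM in females. On Scaffold150, bases 664835 to 697209, GENE_0032616, GENE_0116331 and GENE_0116335 had 197, 463 and 78.3 FPKM in males and at most 0.0246 FPKM in females. In each of these runs edgeR called all 5 of the loci it listed male-biased, the male-limited ones included. On Scaffold300, bases 375504 to 389558, GENE_0138854, GENE_0017103 and GENE_0084333 had 13.3, 19.8 and 9.58 FPKM in males and at most 0.00308 FPKM in females. On Scaffold239, GENE_0130217 and GENE_0040875 had 23.3 and 15.3 FPKM in males and 0.241 and 0.253 FPKM in females, and the third locus of that run was GENE_0056381, whose FPKM stands with a transcript on another scaffold.

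**Figure D4:**
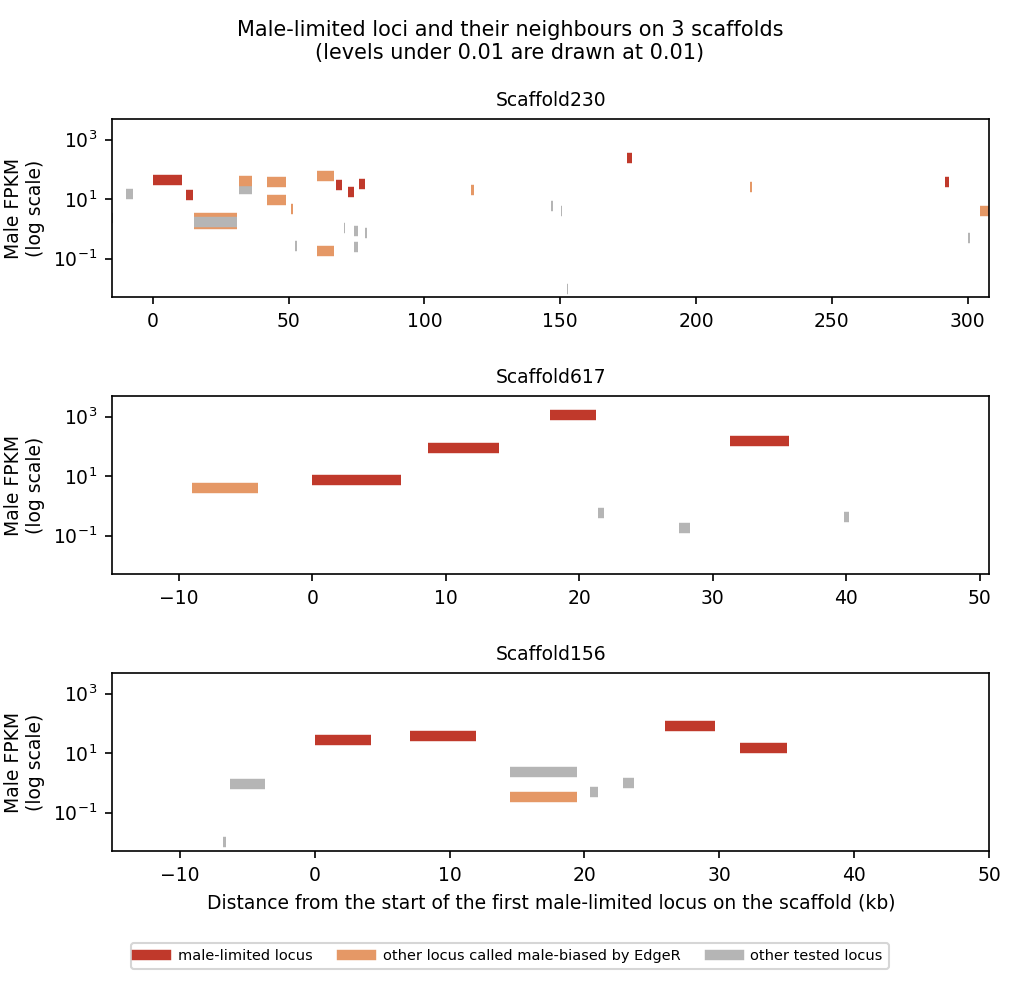
Male-limited loci (red), other loci that edgeR called male-biased (orange) and other tested loci (grey) on Scaffold230, Scaffold617 and Scaffold156, by distance from the start of the first male-limited locus (kb) and the authors' pooled male FPKM (log scale). The 4 male-limited loci of Scaffold617 run from 7.29 to 1149 FPKM, and the 7 of Scaffold230 lie in several groups.

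Loci beside a male-limited locus leaned towards males as well, also where they were not among the 235. The nearest tested locus was higher in males at 184 of 232 male-limited loci (79.3%), and at 1480 of 3012 comparison loci (49.1%). Its median log2 ratio of male to female FPKM, each plus 0.1, was 1.86 beside the male-limited loci and -0.02 beside the comparison loci. Where edgeR listed that neighbour, it called it male-biased at 68 of 136 male-limited loci (50.0%) and at 177 of 2058 comparison loci (8.60%), with a background of 8.40% over all loci. Leaving out neighbours among the 235, the call was made at 47 of 115 (40.9%) and the median log2 ratio was 1.58. The neighbours kept include loci that met the level and the fold but failed on span or shared coordinates. Their log2 ratios reached 12.36, and how many of them there were was not counted.

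The lean towards males was weaker with distance. Among loci outside the 235, edgeR called 40 of 74 male-biased (54.1%, 95% Clopper-Pearson interval 42.1 to 65.7) at a gap of up to 1000 bases. In the next class, up to 2000 bases, it called 51.3% of 39. The loci counted include some left out of the 235 for their span or shared coordinates alone. In the following classes the share was 38.8% of 103 loci up to 5000 bases, 27.8% of 97 up to 10000 and 21.2% of 189 up to 20000. It was 14.1% of 581 loci up to 50000 bases and 7.87% of 5969 beyond 200000 bases, against 7.97% of 16095 loci on scaffolds with no male-limited locus. The share called female-biased had no such course, with 9.46% at up to 1000 bases and 10.8% on scaffolds with none. With loci under 1000 bases left out, the share called male-biased was 52.9% of 70 at up to 1000 bases and 8.28% on scaffolds with none. Loci within a stretch share their place in the genome and some share coordinates, so these intervals are too narrow as a measure of error.

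**Figure D5:**
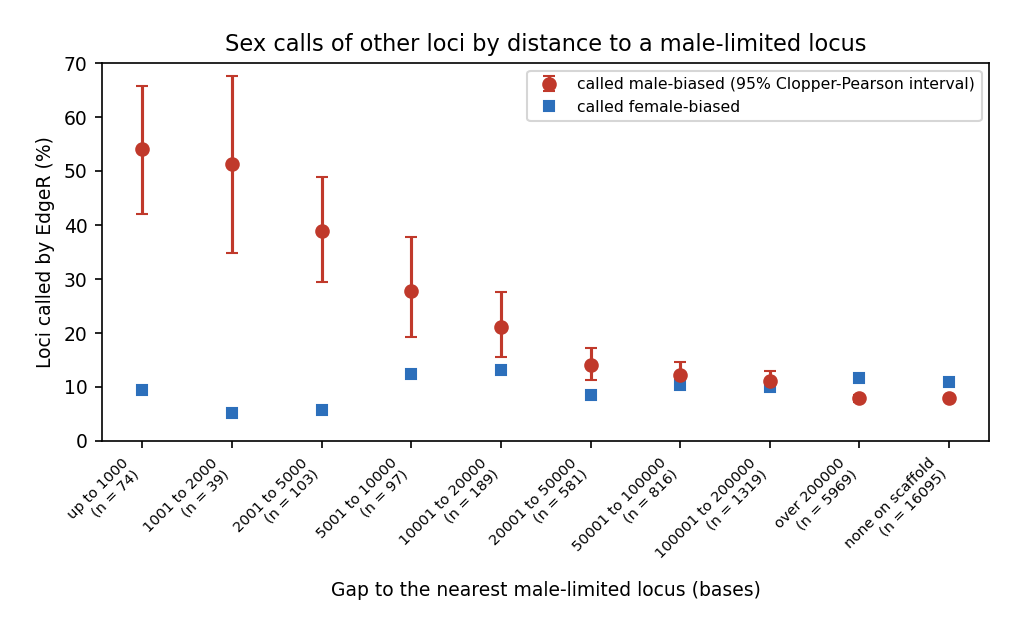
Share of loci that edgeR called male-biased (red circles, 95% Clopper-Pearson intervals) and female-biased (blue squares), by the gap to the nearest male-limited locus (bases). Only loci outside the 235 are counted, and these include some left out for their span or shared coordinates alone. The male-biased share is 54.1% at up to 1000 bases and 7.87% beyond 200000 bases, and the female-biased share lies between 5.13% and 13.2% throughout.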

How the data were processed

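Poly(A) RNA of 2 male and 2 female pools was compared by the authors, and 8 tables of their comparisons were deposited. The authors used TopHat, Cufflinks, Cuffdiff and edgeR, per the submitters' processing notes. Their versions and the build of the genome are not given in the sources used. Per the file headers, the deposited Cuffdiff tables hold 1 pooled FPKM value per sex, the log2 fold change of males over females, a test score, the p-value and its adjusted value. The deposited edgeR tables hold, per the file headers, the log2 fold change, the average log2 CPM over the libraries, and p-values with and without adjustment. No value per library was used, so depth is unknown and no test was run.

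The male-limited loci and the lists were chosen with earlier results of these data known. Isoforms were joined to loci by the first identifier column, which places all 70824 isoforms, whereas the second identifier column differs from the first at 46206 of 61672 loci and joins 24353 isoforms. The authors' edgeR table named for the Trinity mode holds all 6733 loci of the table named for the gene map mode with identical values. Its values were taken as those of the gene map mode for all loci. Positions count from 1. The implied CPM per sex is the level whose mean over the sexes gives the average CPM and whose ratio gives the fold change. It includes the prior count of that fit. Named loci are the 12 highest in males, the 3 highest at 0 in females, the 3 highest ratios, the 4 with the most isoforms, the longest and the shortest, those next to each threshold, and those of the 3 scaffolds with the most loci. Intervals are exact Clopper-Pearson at 95% and cover counting error only. The fold part of the rule and the distances were tested on simulated data, and the other parts of the rule were not. Values were computed in Python 3.11.15 (pandas 2.3.3, numpy 2.4.6, scipy 1.17.1) and plotted with matplotlib 3.10.9.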

Additional observations from a re-analysis of the deposited data

How the results depend on the processing

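Each of the 8 results on the male-limited loci was recomputed under other settings, 76 alternatives in all, and 70 of them kept the value within the limits set (a factor of 1.5 for counts, the 95% interval for shares and medians). The share of loci near another male-limited locus, 27.2% within 50000 bases, was 19.6% within 10000 bases, 38.7% within 200000 bases and 20.2% when loci at 0 FPKM in females were left out. The number of loci called male-biased, 150 by Cuffdiff, was 229 by edgeR and 99 by Cuffdiff at an adjusted p under 0.001. The median male FPKM, 27.8, was 38.2 when the lower limit was 10 FPKM, since that limit removes the lowest loci. The number of loci was 256 at a fold of 16, 221 at a fold of 64 and 226 with 0.1 added to each FPKM. Leaving out GENE_0056381, or the loci that edgeR did not call, was chosen after seeing the data, as were the rule settings for calls, isoform shares and position. The scoring only asked whether a value stayed within the limits set, so a reversal could not have been recorded. Most settings widened or narrowed the same set of loci, so many alternatives share most of their loci with the main set. Leaving out overlapping loci changed nothing, because none of the 235 overlaps a listed locus, so that setting was no check. No paired analysis was possible because the tables hold 1 pooled value per sex, and for the same reason no library could be left out. The depth of each library is unknown, so how far it limits the female values could not be assessed.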

Other observations

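Some strongly male-limited loci fell outside the rule, and they are given here as values. Of 1137 tested loci on scaffolds with at least 5 FPKM in males and 32 times the female FPKM, 866 had coordinates of their own and 271 shared them with another listed locus, 233 of these with a span of 1000 to 20000 bases. Of the 866, 629 were shorter than 1000 bases and 2 were longer than 20000. The 629 short loci had a median span of 196 bases, and 515 of them (81.9%) were listed at 0 FPKM in females. The edgeR table listed 63 of the 629 (10.02%) and called 35 of those 63 male-biased. Within 10000 bases of a male-limited locus of the main set lay 20 of the 629 (3.18%).

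Cuffdiff left 4 loci untested for too many fragments that otherwise met the rule. Their listed FPKM and their edgeR fold change point in opposite directions. Whether a listed 0 at an untested locus of this kind is a measured level is not known. GENE_0176118, GENE_0115308, GENE_0145604 and GENE_0145605 were listed at 35.3, 119, 71.5 and 88.2 FPKM in males and at 0 FPKM in females. In the authors' deposited edgeR table their log2 fold changes were -5.49, -4.86, -5.50 and -5.94, which is lower in males. Of the 37 male-limited loci at 0 FPKM in females, by contrast, 36 lay in the lowest band of implied female CPM, and edgeR called 35 male-biased.

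With the sexes exchanged in the rule, 78 of 3582 loci (2.18%) were at least 5 FPKM in females and 32 times the male FPKM, with a median of 17.6 FPKM in females. The male-limited loci were 235 of 3306 (7.11%), with a median of 27.8 FPKM in males.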
